A study of Mus musculus with 8 samples.

Results

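The genes described here are 34 histone acetylation genes of the mouse, of 24498 genes in the deposited table. They were chosen by name, and every one was found. They fall into 14 acetyltransferases (writers), 11 zinc-dependent deacetylases Hdac1 to Hdac11 and 7 sirtuins (both erasers), and 2 BET family readers, Brd2 and Brd3. All 34 passed the filter on low values used for testing (a mean across libraries of 10 or more), as did 12681 genes in all.

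RNA came from dissected dorsal hippocampus. The mice were C57BL/6J males, 10 to 12 weeks old, all of which had received an AAV2/9 vector in that region. The knockdown vector expressed a short hairpin against ACSS2 from the U6 promoter and EGFP from the CMV promoter (AAV2/9.U6.shACSS2.CMV.EGFP). The control vector (AAV2/9.CMV.EGFP.polyA) expressed EGFP and had no hairpin cassette, so that the libraries labelled WT also carried virus and EGFP. Training began 3 weeks after injection: trained mice met 3 objects in 3 trials of 6 min and were killed 30 min afterwards, and untrained mice stayed in the home cage. The 4 groups were control vector untrained (libraries eGFP.254 and eGFP.268), control vector trained (eGFP.250 and eGFP.266), knockdown vector untrained (KD.253 and KD.255) and knockdown vector trained (KD.249 and KD.251). The labels do not give the number of mice behind a library, so each p-value here measures the spread between 2 libraries per group, which may be partly technical. The U6 and CMV promoters are not specific to neurons, and the tissue holds several cell types. In such bulk RNA, fewer cells of a type and less RNA per cell cannot be told apart.

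Histone acetyltransferases move an acetyl group from acetyl-CoA onto lysines of histone tails, and ACSS2 makes acetyl-CoA from acetate. Deacetylases of classes I, II and IV remove the group with a zinc ion, and sirtuins (class III) remove it with NAD as co-substrate. BET proteins bind the acetylated lysines through bromodomains and recruit the transcription machinery. In the hippocampus the acetyltransferases CBP (Crebbp) and p300 (Ep300) are known as coactivators of activity-dependent transcription, and Hdac2 and Hdac3 as negative regulators of long-term memory.

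Values are the authors' normalized read counts. Depth, as reads assigned to genes, was 272456 in KD.255 and 1484318 in KD.251, and from 6537749 up to 9863728 in the other 6. A single read was therefore worth 15.6 normalized counts in KD.255 and 2.88 in KD.251, against 0.444 to 0.659 elsewhere, and the floor used here for a count of 0, the value of 3 reads, was 46.7 in KD.255. Counting intervals of single values and this floor cover counting error only. The intervals of log2 differences come from the fits and reflect the spread between libraries. The targeted gene, Acss2, stood at 58.2 and 82.0 in the untrained control libraries and 87.4 and 67.5 in the trained ones, against 25.0 and 15.6 (KD.253, KD.255) and 25.6 and 57.7 (KD.249, KD.251) with the hairpin. All 4 knockdown values lay below all 4 control values, KD.251 by less than a single read. The difference averaged over training was -1.37 on the log2 scale (SE 0.33), and its adjusted p was 0.333 (limma), 0.084 (edgeR) or 0.014 (DESeq2). The summed level of 15 pyramidal and granule neuron markers lay between 38367 and 50653 with the control vector and between 37157 and 43054 with the knockdown vector, and none was at 0 in any library. With the hairpin 12 of these 15 markers were lower (median -0.19, 1 passing by DESeq2 and 0 by limma or edgeR), and in untrained mice 15 of 15 (median -0.42).

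The promoters of a few members show the kind of start site these genes have. RefSeq start sites of the build GRCm38.p6 were found for 28 of the 34 genes, giving 40 windows that ran from 250 bases before to 50 bases after a start. Their median was 20 CpG dinucleotides and 61.2% G and C, against 7 and 52.7% over all 32851 such windows of the genome. A GC box, searched as GGGCGG or its reverse complement CCGCCC, was present in 25 of the 40 windows, against 35.7% of all windows. A TATA box (TATAAA or TTTATA) was in 2 of the 40 and in 13.6% of all. The cAMP response element TGACGTCA, which CREB binds, was in none of the 40 and in 1.79% of all. No match says only that these letters are not in these windows. The sequences, 5′ to 3′ on the strand of the gene, are the first 240 bases of the windows of Crebbp and Brd3, a writer and a reader that were high in the same libraries, and of Hdac11, the member with the lowest p for the hairpin. Capitals mark GC box matches. The Crebbp stretch (chr16:4213415-4213654, minus strand, 83.8% G and C, 42 CpG) and the Brd3 stretch (chr2:27475409-27475648, minus strand, 73.3%, 36 CpG) were richer in CpG than the Hdac11 stretch (chr6:91156565-91156804, plus strand, 65.0%, 15 CpG).
Crebbp: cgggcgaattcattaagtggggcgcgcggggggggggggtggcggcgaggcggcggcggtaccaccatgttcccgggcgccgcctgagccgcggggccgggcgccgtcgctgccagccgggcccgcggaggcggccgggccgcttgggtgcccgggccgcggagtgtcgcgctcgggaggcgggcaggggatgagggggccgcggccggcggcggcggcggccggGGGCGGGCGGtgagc
Brd3: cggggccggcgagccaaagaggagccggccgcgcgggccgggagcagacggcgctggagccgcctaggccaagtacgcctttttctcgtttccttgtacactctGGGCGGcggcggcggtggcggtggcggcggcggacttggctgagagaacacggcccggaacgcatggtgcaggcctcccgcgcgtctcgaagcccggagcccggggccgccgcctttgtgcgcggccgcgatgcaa
Hdac11: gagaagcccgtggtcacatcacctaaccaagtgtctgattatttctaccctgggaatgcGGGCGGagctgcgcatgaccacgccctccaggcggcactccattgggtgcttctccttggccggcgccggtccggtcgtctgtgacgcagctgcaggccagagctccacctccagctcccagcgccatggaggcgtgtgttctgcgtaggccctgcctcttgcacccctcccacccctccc

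The members differed widely in level. Levels were compared per kb of merged exons, as normalized read counts per kb in the 4 control libraries (mean ± SD, n = 4). Sirt2, a deacetylase of tubulin and histones that is abundant in oligodendrocytes, was at the top with 155 ± 33.3 per kb. Brd2, a BET reader, followed with 130 ± 13.9, and Ncoa1, a nuclear receptor coactivator counted here among the writers, with 121 ± 12.5. Hdac11, the single class IV deacetylase, was next with 98.8 ± 13.4. The lowest member was Sirt5, a mitochondrial desuccinylase, with 4.24 per kb, so the levels spanned 36.6-fold.

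Most neighbours in that order could not be told apart. Only 6 of the 33 gaps between neighbours were wider than the larger SD of the pair. These were the steps from Ncoa1 to Hdac11, from Ep300 to Ncoa2, from Hdac6 to Kat8, from Kat8 to Hdac9, from Sirt1 to Hdac8 and from Hdac4 to Sirt5. With the length of the longest transcript in place of merged exons, Sirt2 and Brd2 still led, the largest shift was 6 ranks, and the rank correlation between both orders over the 34 genes was 0.969, given as a description. Most of the wide steps turned round with that length. Hdac11 (143) then stood above Ncoa1 (141), Ncoa2 (82.9) above Ep300 (79.6), Kat8 (46.7) above Hdac6 (40.4) and Hdac8 (24.8) above Sirt1 (18.5). The steps from Kat8 to Hdac9 and from Hdac4 to Sirt5 kept their direction. The SD does not include the choice of length.

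**Figure D1:**
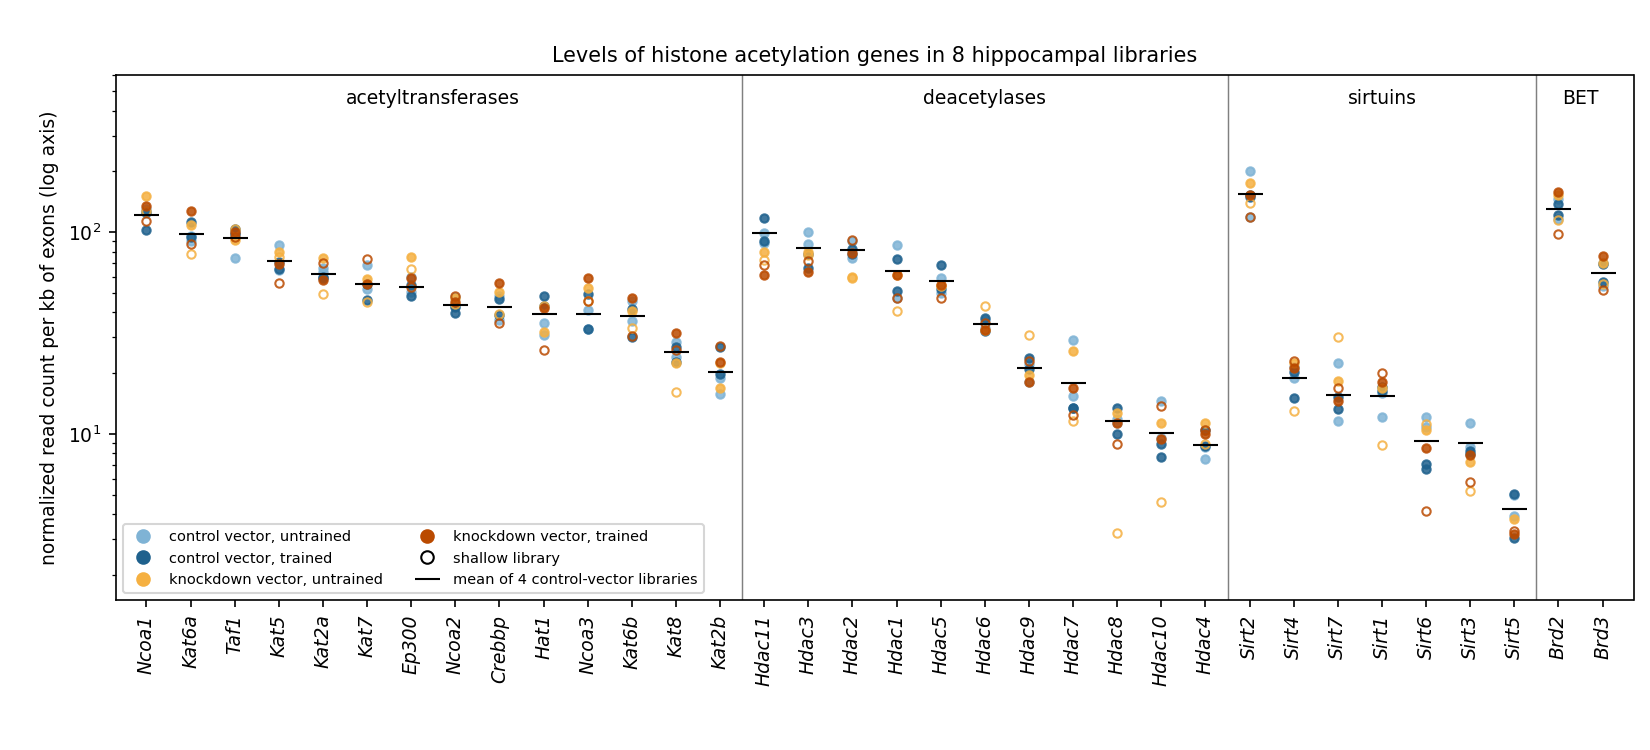
Level of each of the 34 genes per kb of merged exons on a log axis, one point per library colored by group, with the mean of the 4 control libraries as a bar, open points for the shallow libraries KD.251 and KD.255, and genes ordered by class. The 0 of Sirt5 in KD.255 cannot be drawn on this axis. Sirt2 and Brd2 lead at 155 and 130 normalized counts per kb, and Sirt5 is lowest at 4.24.

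Within the writers, Ncoa1 was followed by Kat6a (98.1 per kb), a MYST family enzyme, and Taf1 (93.6), a bromodomain subunit of the TFIID complex. Ep300 stood at 53.4 per kb and its paralog Crebbp at 42.4. The lowest writers were Kat8 (25.5), the MYST enzyme that acetylates lysine 16 of histone H4, and Kat2b (20.3), also known as PCAF. This order depended on the length used: by longest transcript Kat5 (112) followed Ncoa1 (141), and Ncoa3 (41.1) stood below Kat8 (46.7). Among the deacetylases, class I members Hdac3 (82.9), Hdac2 (81.2) and Hdac1 (64.4) ran close together below Hdac11, while Hdac8 (11.6), also of class I, was far below them. Of class IIa, whose members shuttle between nucleus and cytoplasm, Hdac5 (57.5) was highest and Hdac4 (8.82) lowest. Hdac4 shares 22.4% of its exon bases with other annotated genes. Among the sirtuins, Sirt2 exceeded the next member, the mitochondrial Sirt4 (18.9), by far, and Sirt1, the nuclear founding member, stood at 15.3.

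The first question was whether ACSS2 knockdown altered the level of these genes. Averaged over training, none of the 34 members passed a Benjamini-Hochberg adjusted p of 0.05 over all tested genes by limma, edgeR or DESeq2. Over all 12681 genes the percentages called were 0.103 (limma), 0.962 (edgeR) and 1.54 (DESeq2). At an unadjusted p under 0.05 there were 2 members by limma, against 5.59% of all genes, and 2 by edgeR, against 7.85%. They were Hdac11 and Ncoa3 by both. Of the members, 17 had a higher and 17 a lower mean in the knockdown libraries on the log2 scale, while 44.3% of all genes were higher.

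Interferon response genes and markers of microglia and oligodendrocytes stood higher with the knockdown vector in the same libraries: 7 interferon genes passed by limma and 18 by edgeR, and 0 microglial markers passed by limma and 3 by edgeR. Microglial markers were higher with the knockdown vector for 12 of 12, with a median of 0.86, and summed to 1418 to 1642 in control and 2034 to 3438 with the knockdown vector, with no marker at 0. The interferon response genes were higher for 20 of 20, with a median of 3.27. They summed to 563 to 768 with the control vector and to 1581 to 7548 with the knockdown vector, and Cxcl10 was at 0 in eGFP.254. Oligodendrocyte markers were higher for 15 of 15, with a median of 0.31 and overlapping sums of 11970 to 27058 in control and 19145 to 30768 in knockdown libraries, and in trained mice for 10 of 15, with a median of 0.05. Choroid plexus markers were lower for 8 of 8, with a median of -2.15: they summed to 59974 in eGFP.250, 15700 in eGFP.254, 723 in eGFP.266 and 243 in eGFP.268, against at most 1938 with the knockdown vector, where Folr1, Kcne2, Aqp1 and Otx2 were at 0 in KD.255 and Aqp1 also in KD.251. Their part in the difference of Hdac11, Sirt3 or Ncoa3 was not tested. The hairpin and these shifts cannot be told apart in libraries that differ by vector.

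Hdac11, which removes acetyl and longer fatty acyl groups and is abundant in brain, had the lowest p. Its level was 382 and 338 in the untrained control libraries and 452 and 348 in the trained ones. In the knockdown libraries it was 307 and 280 without training (KD.253, KD.255) and 236 and 265 with it (KD.249, KD.251). All 4 knockdown libraries lay below all 4 control libraries. In the shallow KD.255 the value rests on 18 reads, and its 95% counting interval of 166 to 442 takes in control values. In KD.251 it rests on 92 reads (214 to 325). The 2 highest values, 452 and 382, were those of eGFP.250 and eGFP.254, the libraries with the high choroid plexus sums, and the other 2 control libraries, at 338 and 348, also lay above all 4 knockdown libraries. This gave a difference of -0.48 on the log2 scale (SE 0.15, 95% interval -0.81 to -0.14), 0.718 of the control level. The limma p was 0.010, and after adjustment the p was 0.645 (limma), 0.326 (edgeR) and 0.271 (DESeq2), so Hdac11 did not pass. The difference was -0.66 (SE 0.22) in trained and -0.29 (SE 0.22) in untrained mice, and the interaction of -0.37 (SE 0.31) did not pass. Without the 2 shallow libraries it was -0.48, with an adjusted p of 0.418, and with single libraries left out it ran from -0.55 to -0.37. The gene lies at chr6:91156665-91174692 on the plus strand of mm10. The annotation places Gm14573 and Gm44002 over 17.9% of its exon bases. The strand setting of the counting is not given in the sources used here.

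Sirt3, the main mitochondrial deacetylase, was the other member whose groups did not overlap. Control libraries gave 67.5, 51.4, 47.6 and 49.3, in the order eGFP.254, eGFP.268, eGFP.250 and eGFP.266, and knockdown libraries 43.5, 31.1, 47.1 and 34.6, the untrained ones (KD.253, KD.255) first. The margin between KD.249 and eGFP.250 was smaller than the 0.517 that 1 read was worth in eGFP.250. The difference was -0.46 (SE 0.25) with an adjusted p of 0.873 by limma, and it was -0.23 without the 2 shallow libraries. KD.255 held 2 reads of Sirt3. The gene shares 12.7% of its exon bases with Psmd13 and Ric8a. Both non-overlapping members were lower, 2 of 34, against 1.98% of all genes lower and 2.28% higher by the same rule.

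Ncoa3, a nuclear receptor coactivator, had the largest positive difference among the writers. It stood at 323 and 262 in untrained and 262 and 390 in trained control libraries, against 416 and 358 in untrained and 467 and 361 in trained knockdown libraries. One control library, eGFP.266, lay inside the knockdown range. The difference was 0.38 (SE 0.17, 95% interval 0.00 to 0.76), with an unadjusted p of 0.049 and an adjusted p of 0.873 by limma and 0.534 by edgeR. Ep300 showed 856, 724, 780 and 686 with the control vector and 1074, 933, 847 and 764 with the knockdown vector, a difference of 0.24 (SE 0.13) with overlapping groups. Its paralog Crebbp differed by 0.08 (SE 0.18), with an interval of -0.32 to 0.48.

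Ncoa1, the highest writer, gave 1071, 1118, 879 and 1076 with the control vector and 1292, 1089, 1156 and 975 with the knockdown vector, a difference of 0.12 (SE 0.13). Ncoa3 apart, all writers lay within 0.25 of 0 on the log2 scale. Hat1, which acetylates newly made histone H4, differed by -0.15 (SE 0.22), Kat2a, the catalytic subunit of SAGA also called GCN5, by 0.00 (SE 0.17), and Kat5, the catalytic subunit of the NuA4/TIP60 complex, by -0.04 (SE 0.15). Of the 14 writers, 10 were higher and 4 lower. Their median was 0.06 (0.02 to 0.12 with single libraries left out), against -0.03 for all tested genes.

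Among the deacetylases, 3 were higher and 8 lower, with a median of -0.12. It ran from -0.21 to -0.080 with single libraries left out. With a term for low or high column number, which set eGFP.266 and eGFP.268 apart, it was -0.27. The memory-related class I enzymes Hdac2 and Hdac3 differed by -0.19 (SE 0.16) and -0.17 (SE 0.13). Hdac2 was 334, 404, 368 and 347 with the control vector and 268.2, 264, 351 and 410 with the knockdown vector: both untrained knockdown libraries lay below every control library, and the trained ones did not. KD.255 held 17 reads of Hdac2, with a 95% counting interval of 154 to 423 that takes in the control values. In the same untrained comparison the markers of pyramidal and granule neurons were lower for 15 of 15, and their part in the value was not tested. Hdac1 differed by -0.27 (SE 0.24). Hdac5, the highest class IIa member, gave 519, 438, 459 and 602 with the control vector and 472, 482, 482 and 413 with the knockdown vector, and Hdac6, the higher class IIb member, 195, 214, 218 and 188 against 189, 248.8, 189 and 205. Their differences were -0.12 (SE 0.14) and 0.02 (SE 0.15), with overlapping groups. The fitted difference of Hdac8 was -0.51 (SE 0.39), but KD.255 held 1 read of it, and without both shallow libraries the value was 0.05.

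The sirtuin median was -0.08, with 3 higher and 4 lower, and its sign depended on single libraries, with values from -0.18 to 0.054 when one was left out. Sirt2 differed by -0.08 (SE 0.18), and its levels of 1006, 599, 764 and 753 in control libraries covered those of 881, 700, 766 and 594 with the knockdown vector apart from the lowest. Sirt7, the nucleolar sirtuin, was 115, 59.9, 68.3 and 78.0 with the control vector and 93.6, 156, 75.2 and 86.5 with the knockdown vector. The highest of these values is that of KD.255, where it had 10 reads, and the difference was 0.34 (SE 0.26), or 0.11 to 0.49 with single libraries left out. Sirt5 had no read in KD.255, where the floor is 46.7 normalized counts. Its fitted difference of -1.38 (SE 0.91) rests on that 0, and the other 3 knockdown libraries, at 23.1, 19.4 and 20.2, lay within the control range of 18.6 to 30.6. The BET readers Brd2 and Brd3 differed by -0.02 (SE 0.18) and 0.01 (SE 0.17), and their median ran from -0.13 to 0.12 with single libraries left out.

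**Figure D2:**
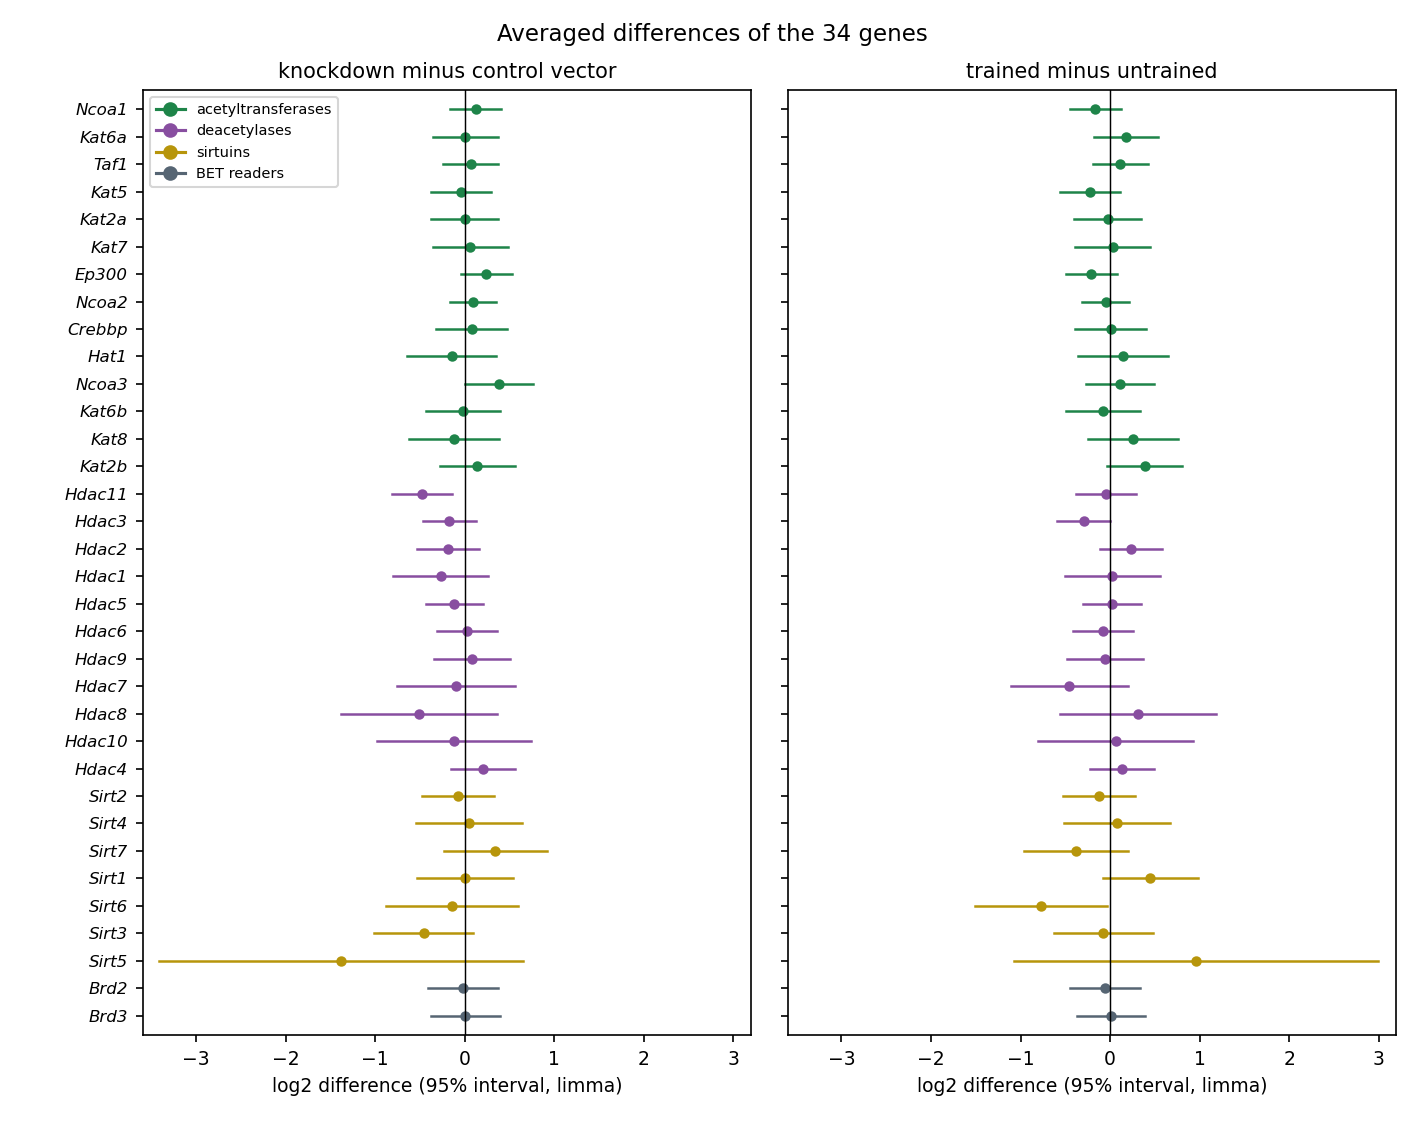
Log2 differences of the 34 genes with 95% intervals, knockdown minus control vector and trained minus untrained, each averaged over the other factor, on log2(normalized read count + 1). The Hdac11 interval, -0.81 to -0.14, lies below 0 in the hairpin comparison, and the Sirt5 intervals are the widest.

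The precision differed by gene. The median SE over members was 0.18, and for 31 of the 34 the 95% interval of the hairpin difference lay within a 2-fold change in either direction. For 21 it lay within 1.5-fold. A miss of the threshold does not show equal levels, and it is the interval that says which sizes these 8 libraries leave in range.

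**Figure D3:**
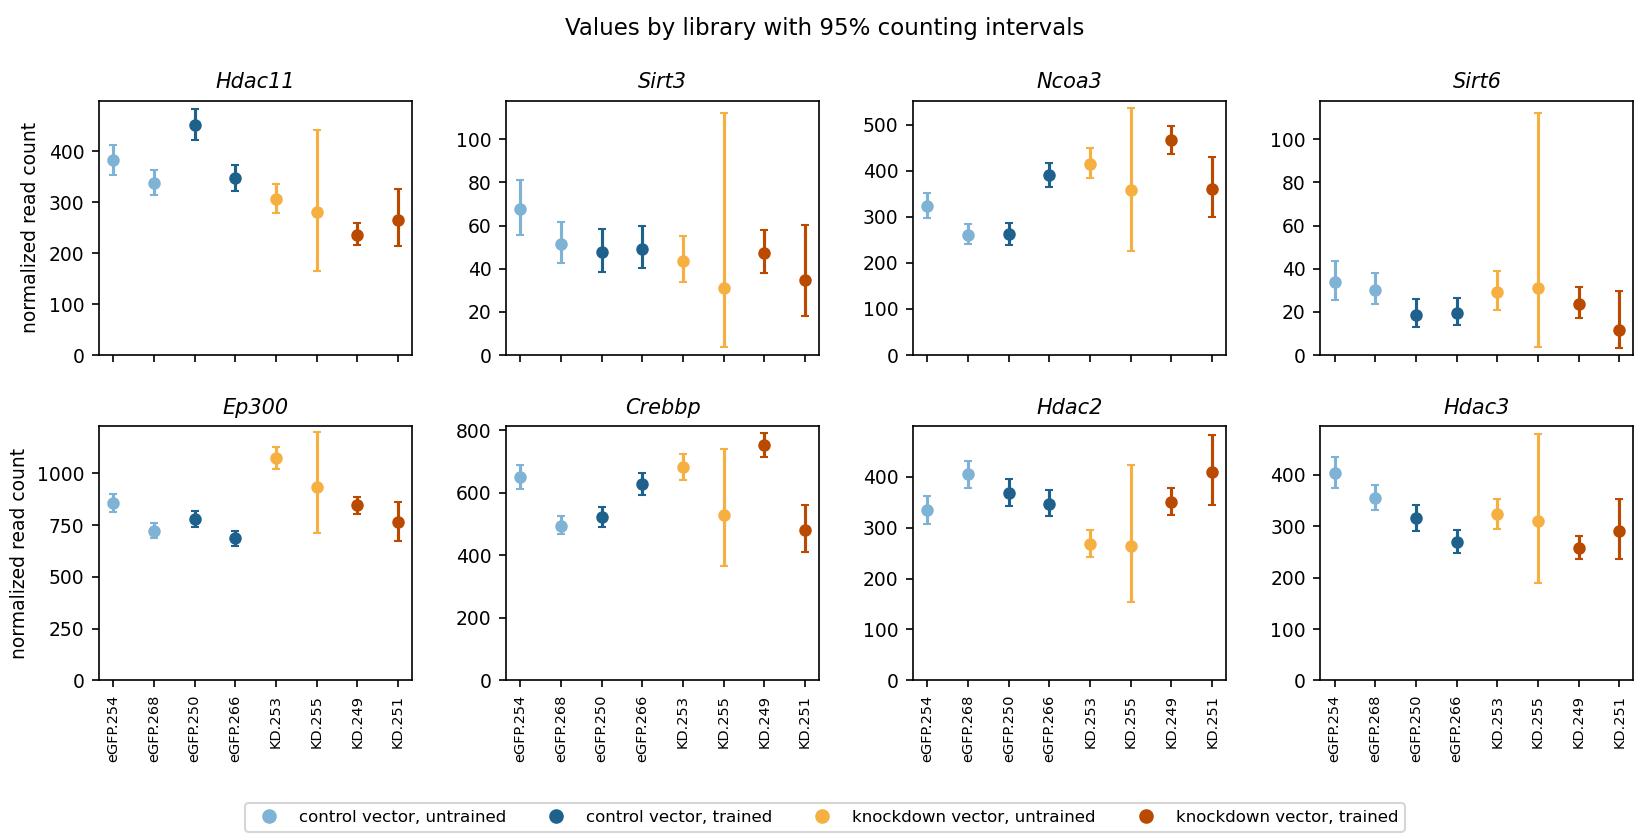
Normalized read counts of single members in each of the 8 libraries by group. Hdac11 runs from 338 to 452 with the control vector and from 236 to 307 with the knockdown vector, while the groups of Ncoa3 overlap.

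The classes were then compared with each other by their summed levels per kb in each library. Such sums weight the abundant members and carry no test here, since the members were chosen as a list. The 11 deacetylases summed to 489 ± 30.6 per kb in control and 425 ± 18.0 with the knockdown vector (SD, n = 4 each). By library these were 534, 466, 483 and 475 in control and 448, 406, 417 and 430 in knockdown, so that the groups did not overlap. Hdac11 carried part of this: without it the sums were 366 to 435 in control and 333 to 368 with the knockdown vector, which overlap. The 14 acetyltransferases summed to 804 ± 31.6 in control and 845 ± 67.6 with the knockdown vector, with overlap. The sirtuins, dominated by Sirt2, gave 227 ± 42.5 and 220 ± 27.1, and the BET readers 193 ± 22.3 and 194 ± 40.5.

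The ratio of summed writers to summed erasers (deacetylases and sirtuins together) was 0.99, 1.23, 1.10 and 1.21 with the control vector and 1.28, 1.28, 1.41 and 1.27 with the knockdown vector. Means were 1.13 ± 0.11 and 1.31 ± 0.07, and every knockdown library lay above every control library, with 1.23 in eGFP.268 and 1.27 in KD.251 as the nearest pair. The order also held without Hdac11, with 1.12 to 1.42 in control and 1.43 to 1.56 with the knockdown vector. With longest-transcript lengths the ranges met, at 0.80 to 1.02 and 1.01 to 1.12. By training the ratio was 1.19 ± 0.14 in untrained and 1.25 ± 0.13 in trained libraries. These are ratios of RNA, and neither enzyme activity nor acetylation was measured in these libraries.

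**Figure D4:**
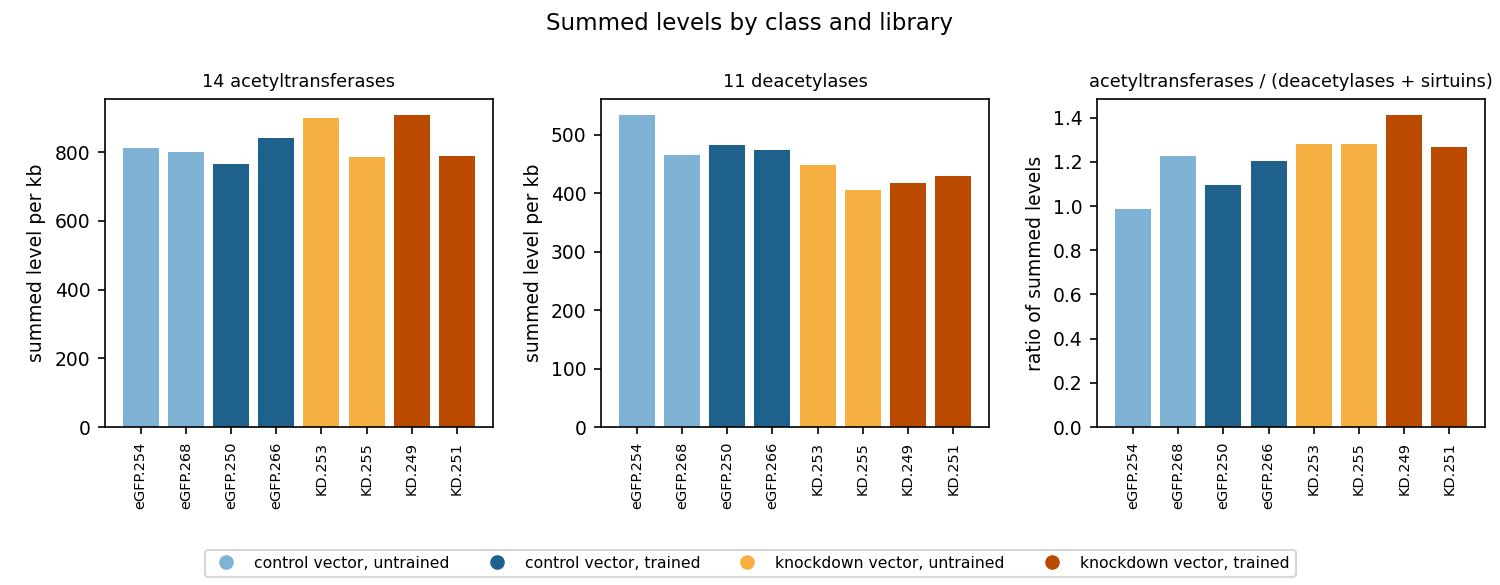
Summed level per kb of the 14 acetyltransferases and of the 11 deacetylases in each library, and the ratio of writers to erasers (deacetylases and sirtuins together). Deacetylase sums are 466 to 534 in control and 406 to 448 with the knockdown vector, and acetyltransferase sums overlap between the vectors.

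The second question was whether training altered these genes 30 min later. Averaged over the vectors, again none of the 34 members passed, and the percentages of all genes called were 0 by limma, 0 by edgeR and 0.0631 by DESeq2. At an unadjusted p under 0.05 there was 1 member by limma (4.86% of all genes) and 4 by edgeR (6.92% of all genes). Of the members 18 were higher and 16 lower after training, and 55.1% of all genes were higher. Class medians were 0.02 for writers, 0.02 for deacetylases, -0.07 for sirtuins and -0.02 for BET readers, against 0.03 for all genes. With single libraries left out they ran from -0.076 to 0.079, from -0.052 to 0.076, from -0.18 to 0.044 and from -0.14 to 0.11, so their signs depended on single libraries.

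Sirt6, a chromatin-bound sirtuin that deacetylates histone H3, was the member with the lowest p by limma. It stood at 33.7 and 30.2 in untrained control libraries and at 29.0 and 31.1 in untrained knockdown libraries. After training it stood at 18.6 and 19.6 with the control vector and at 23.5 and 11.5 with the knockdown vector. All 4 trained libraries lay below all 4 untrained ones, and the 2 shallow libraries held 2 and 4 reads of it. The difference was -0.77 (SE 0.33), with an unadjusted p of 0.043 and an adjusted p of 0.873 by limma and 0.718 by edgeR. It was -0.71 (SE 0.51) with the control vector and -0.82 (SE 0.51) with the knockdown vector. Without both shallow libraries it was -0.57. Sirt6 was the single non-overlapping member, and 1.62% of all genes were lower and 1.65% higher by that rule.

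The other 3 members with a low p by edgeR were Hdac7, Kat2b and Hdac3. Hdac7, a class IIa deacetylase with known roles in endothelium, gave 197 and 104 in untrained and 90.5 and 90.9 in trained control libraries, and 174 and 77.8 in untrained and 114 and 83.7 in trained knockdown libraries. The 2 high libraries, eGFP.254 and KD.253, were both untrained, and the groups overlapped. Its difference was -0.45 (SE 0.29) by limma and -0.65 by edgeR, whose unadjusted p was 0.018 and adjusted p 0.718. With single libraries left out the limma value ran from -0.72 to -0.23. Kat2b was 76.2 and 91.8 in untrained and 131 and 96.6 in trained control libraries, and 82.4 and 109 in untrained and 111 and 133 in trained knockdown libraries, a difference of 0.39 (SE 0.19). Hdac3 was 404 and 355 before and 315 and 269 after training with the control vector, and 324 and 311 against 257 and 291 with the knockdown vector. Within each vector its trained libraries were the lower ones, for a difference of -0.29 (SE 0.13) and an adjusted p of 0.873 by limma.

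The coactivators with known roles in activity-dependent transcription did not pass with training. Crebbp differed by 0.01 (SE 0.18) and Ep300 by -0.21 (SE 0.13). Hdac2 differed by 0.23 (SE 0.16), Sirt1 by 0.45 (SE 0.24) and Brd2 by -0.06 (SE 0.18). For 30 of 34 members the interval lay within a 2-fold change. The fitted value of Sirt5, 0.96 (SE 0.91), again rests on its 0 in KD.255, and without that library it was -0.18. Of 15 oligodendrocyte markers, 14 were higher after training in the same libraries, with a median of 0.63. Their summed levels were 11970 to 20856 in untrained and 20100 to 30768 in trained libraries, and no marker was at 0. Other lists were mostly lower: 11 of 12 microglial markers (median -0.24), 9 of 10 of inhibitory neurons (-0.24), 8 of 10 of astrocytes (-0.20) and 6 of 8 of endothelium (-0.18), the cells in which Hdac7 is known. The part of these shifts in the values of the members was not tested. Sirt2, abundant in oligodendrocytes, whose markers were mostly higher, differed by -0.13 (SE 0.18).

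The simple comparisons within 1 training state or 1 vector set 2 libraries against 2 and had a median SE of 0.27 over members. No member passed in any of them by any of the 3 tools. For the hairpin in untrained mice the percentages of all genes called were 0 (limma), 0.181 (edgeR) and 0.434 (DESeq2), and in trained mice 0.00789, 0.0315 and 0.26. For training with the control vector they were 0, 0 and 0.0315, and with the knockdown vector 0 by each tool. Groups of 2 that did not overlap were common. In untrained mice 3 members were higher and 6 lower with the hairpin, against 31.1% of all genes in either direction. In trained mice 5 were higher and 3 lower (29.2% of all genes), with training in control mice 4 higher and 7 lower (28.8%), and with training in knockdown mice 4 higher and 6 lower (30.4%). These shares of 34 are near the background.

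The largest differences of these comparisons were seen mostly in members with few reads. With the hairpin in untrained mice they were those of Sirt5 (-2.50, SE 1.24), Hdac8 (-0.83, SE 0.56), Sirt7 (0.53, SE 0.38, or 0.067 to 1.00 with single libraries left out) and Ncoa3 (0.41, SE 0.26). Hdac8 was 57.0 and 55.0 in the control libraries, 61.3 in KD.253 and 15.6, a single read, in KD.255. In trained mice they were those of Hdac11, Hat1 (-0.46, SE 0.31, or -0.80 to -0.12 with single libraries left out), Hdac10 (0.45, SE 0.52) and Ncoa3 (0.36, SE 0.26). Hdac10, of class IIb, was 30.0 and 25.8 in trained control libraries and 31.7 and 46.2 in trained knockdown libraries. With training in control mice they were those of Sirt6, Hdac7 (-0.66, SE 0.43), Hat1 and Kat2b (0.43, SE 0.29). With training in knockdown mice they were those of Sirt6, Sirt7 (-0.57, SE 0.38), Sirt5 (2.09, SE 1.24) and Sirt1 (0.64, SE 0.35). Sirt1 was 90.3 in KD.253 and 46.7, or 3 reads, in KD.255, against 96.7 in KD.249 and 107 in KD.251. The direction of Sirt5 and Hdac8 depended on KD.255. Without that library Sirt5 gave -0.21 for training in knockdown mice and Hdac8 0.13 for the hairpin in untrained mice.

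Hdac2 was the 1 member with an unadjusted p under 0.05 for training with the knockdown vector. It stood at 268.2 and 264 untrained and at 351 and 410 trained, a difference of 0.51 (SE 0.21) with an unadjusted p of 0.035 and an adjusted p of 0.802 by limma. The value of 264, in KD.255, rests on 17 reads, with a 95% counting interval of 154 to 423 that takes in both trained values. With the control vector the difference was -0.04 (SE 0.21). The interaction of 0.55 (SE 0.29) had an unadjusted p of 0.091 and did not pass by limma. Hat1 had values of 102 and 89.6 untrained and 125 and 139 trained with the control vector, against 92.3 and 124 untrained and 121 and 75.0 trained with the knockdown vector. Its training difference was 0.46 (SE 0.31) in control mice and the interaction was -0.63 (SE 0.43). The other interactions farthest from 0 were those of Hdac9 (-0.43, SE 0.38), Sirt5 (2.25, SE 1.75), which was -0.05 without KD.255, and Hdac10 (1.12, SE 0.73), which had 1 read in KD.255. No interaction passed among the members or among all genes by any tool (0% called), and no member had an unadjusted p under 0.05 by limma, edgeR or DESeq2. Of all 12681 genes, 112 had such a p by limma, 98 by edgeR and 52 by DESeq2. The median SE of the interaction was 0.38.

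A set of chromatin genes differed between libraries in a way that neither factor followed. This pattern was chosen after the values were seen. Of all reads, 16.4% to 17.9% fell in no annotated gene in eGFP.254, eGFP.266, KD.253 and KD.249, and 18.5% to 20.3% in the other 4, so that each group held 1 library of either kind. In the 4 libraries with the lower share, 6 members lay above all of the other 4 libraries: Crebbp, Kat6a, Kat6b, Hdac1, Brd2 and Brd3, by ratios of 1.27 to 1.52. By that rule 6.66% of all genes lay above and 6.47% below. Below were Hdac6, the cytoplasmic tubulin deacetylase, and Hdac9, of class IIa.

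The largest of these ratios was that of Hdac1. It stood between 211 and 295 in eGFP.254, eGFP.266, KD.253 and KD.249, and at 176, 162, 161 and 140 in eGFP.250, KD.251, eGFP.268 and KD.255. Across the 8 libraries its log2 level had a Pearson r of -0.90 with that share (exact permutation p 0.003, adjusted 0.583 over 12681 genes) and a Spearman rho of -0.95, and r was -0.97 without the 2 libraries farthest from the median share. Hdac1 was picked by its ratio between libraries split on this share, so these values describe the pattern and do not test it. Brd3 stood at 516, 508, 515 and 555 in the 4 libraries with the lower share and at 378 to 413 in the others. Crebbp stood at 649, 628, 682 and 752, against 482 to 529. Brd2 stood at 1146, 1074, 1193 and 1233, against 764 to 952. Hdac9 was reversed, at 264 to 307 against 325 to 451. No gene of the 12681 passed an adjusted p of 0.05 in this relation, and 8.51% of all genes had an unadjusted exact p under 0.05, against 5 of 34 members. These were Hdac1, Hdac5, Sirt2 and Brd3, with negative r, and Hdac6, with positive r. The exact permutation p was 0.060 for Crebbp, 0.136 for Kat6a, 0.109 for Kat6b and 0.078 for Brd2. The shallow libraries KD.251 and KD.255 are both among the 4 with the higher share. Depth, the share of reads in no gene and these levels therefore move together in part, and their part in the result was not tested.

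**Figure D5:**
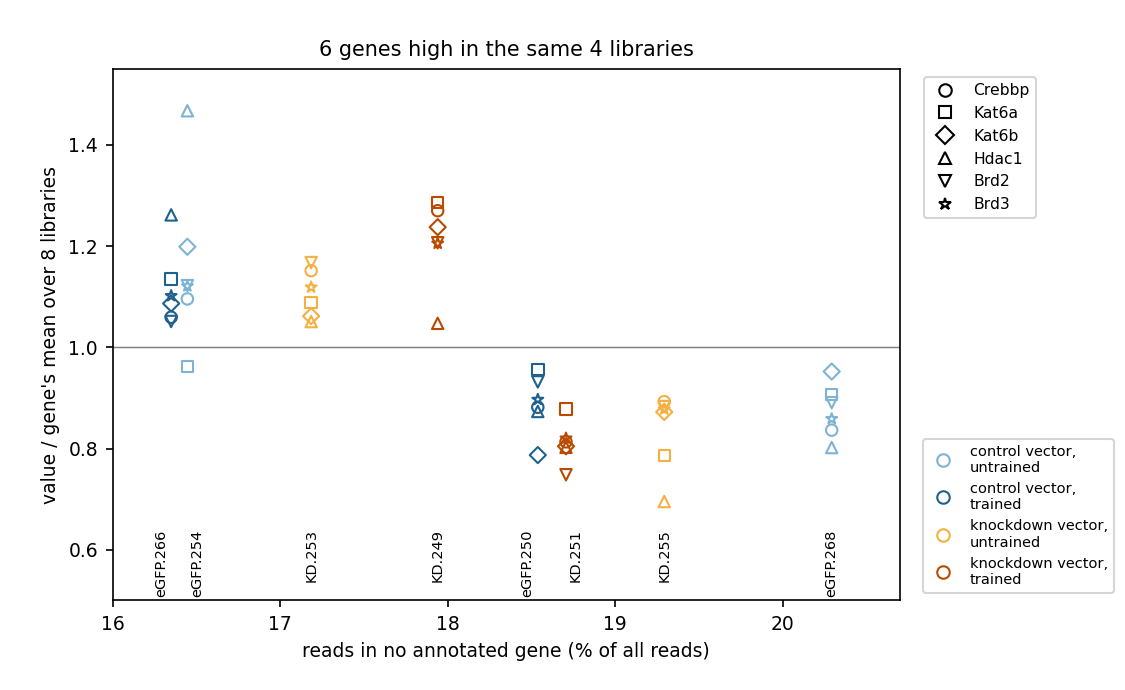
Level of 6 members relative to the gene's mean over the 8 libraries, against the percentage of a library's reads that fell in no annotated gene. Points of the 4 libraries at 16.4% to 17.9% lie above the other 4 for each gene, with both vectors and both training states on either side.

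With that share added as a term after seeing the data, SEs of the hairpin difference narrowed for several of these genes, for Hdac1 from 0.24 to 0.15 and for Brd2 from 0.18 to 0.15. These genes had been picked by their relation to the share, so the narrowing does not test the term. In that fit Hdac11 gave -0.47 with an adjusted p of 0.587 and Ncoa3 0.43 with an adjusted p of 0.577, both by limma. No member passed.

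The partners of these enzymes were taken from 4 further lists of the pathway. Subunits of acetyltransferase complexes (39 tested) were higher with the hairpin in 23 and lower in 16, with a median of 0.04, from Taf6l at -1.22, which had 0 reads in KD.255, to Supt20, of SAGA, at 0.33. Subunits of deacetylase complexes (33 tested) were higher in 16 and lower in 17, with a median of -0.02, from Hmg20b at -0.45 to Rcor1, the CoREST scaffold, at 0.35. Rcor1 was 89.9 to 98.9 with the control vector and 101 to 140 with the knockdown vector, so its groups did not overlap, with an adjusted p of 0.873 by limma. Other readers of acetyl-lysine (32 tested) were higher in 18 and lower in 14, with a median of 0.07, from Brd7 at -0.34 to Baz1a at 0.69. Baz1a ranged from 9.31 to 29.5 in control and from 14.4 to 45.0 with the knockdown vector. Genes of acetyl-CoA supply (12 tested), Acss2 among them, were higher in 3 and lower in 9, with a median of -0.18, from Acss2 at -1.37 to the monocarboxylate transporter Slc16a1 at 0.19. By limma and edgeR no gene of these 4 lists passed, and by DESeq2 Acss2 alone did.

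After training the same lists had medians of 0.06, 0.01, 0.09 and 0.04, in the order complex subunits of writers, of erasers, readers and acetyl-CoA supply, against 0.03 for all genes, and none of their genes passed by any of the 3 tools. Among subunits of writers the values ran from Mcrs1 at -0.67 to Taf6l at 1.22. Mcrs1, a subunit of the NSL complex around Kat8, was at most 46.2 in trained libraries and reached 62.2 in untrained ones, without overlap (SE 0.25, adjusted p 0.873 by limma). Taf6l rests on its 0 in KD.255. Among subunits of erasers the values ran from Rcor2 at -0.48 to Sap30, of the SIN3 complex, at 0.59, among readers from Atad2 at -0.55 to Dpf2 at 0.32, and among acetyl-CoA genes from Pdhb, of the pyruvate dehydrogenase complex, at -0.44 to Acat2 at 1.07.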

How the data were processed

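RNA-seq of the dorsal hippocampus was analysed in 8 libraries, 2 in each of 4 groups. Per the submitters' processing notes, the tools were bcl2fastq 02.14.01.07, STAR 2.3.0, HTSeq 0.6.1, DESeq and bedtools, with build mm10. The annotation used in counting and its strand setting are not stated there. The authors deposited a normalized signal per gene, and 100% of values were whole multiples of the library's smallest value (relative tolerance 1e-06), so read counts were recovered from it. The table held 24498 genes and 5 summary entries, which stayed out of library sizes and tests and took 34.5% to 39.5% of a library's reads.

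The main test was limma 3.58.1 (R 4.3.3, intensity trend) on log2(value + 1), fitted to the 12681 genes whose mean reached 10. Log2 differences are on that scale, which mostly understates changes of low genes, and a 0 in KD.255 can overstate one. The averaged comparisons used an additive model of vector and training and the others 4 group means. Benjamini-Hochberg adjustment ran over every tested gene. The quasi-likelihood test of edgeR 4.0.16 and DESeq2 1.42.0 were run on the recovered reads. The fits were tried on simulated data for the averaged hairpin comparison alone. There every gene had the same relative spread, and changes larger than most seen here were set in genes above a level cut. That trial does not show how the fits do for small differences or low genes. The planned design named edgeR for raw counts and limma for other units, and limma was used. Named genes are members that passed any tool, members whose averaged groups did not overlap, the 2 highest and 2 lowest differences per comparison among members with at least 100 summed reads, the highest member per class by level, Crebbp, Ep300, Hdac2, Hdac3, Sirt2 and Hdac11, and the extremes of the other lists. Further genes were named after their values were seen. Lengths and positions came from the GENCODE M21 annotation of GRCm38, which is mm10, and promoters from RefSeq. The members and lists were chosen with earlier results of these data known.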

Additional observations from a re-analysis of the deposited data

How the results depend on the processing

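No paired analysis was possible because the deposited columns do not carry the replicate numbers of the labels. With each library left out in turn, the number of members passing limma was 0 to 2 for the hairpin in untrained mice and for training with the knockdown vector, 0 to 1 for the interaction and 0 in the other 4 comparisons. The calls arose without KD.253, which leaves KD.255 as the single untrained knockdown library, assumed to vary like the other groups. They were Sirt5 and Hdac8 in the hairpin comparison (-4.80 and -1.78, adjusted p 0.000757 and 0.0158), both again with training in knockdown mice (Sirt5 4.38), and Sirt5 in the interaction (4.54, adjusted p 0.00735), at 0 and 1 read in KD.255. In these fits 1279, 1232 and 692 of 12671 genes passed. Leaving out 1 library moved the writer median after training between -0.076 and 0.079. The deacetylase median with the hairpin was -0.27 with the number term, which set eGFP.266 and eGFP.268, with the highest column numbers, apart. Both are control libraries, so the term and the vector overlap in part.

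Among named members, a sign changed for Hdac8 and Sirt5, and class medians that changed sign with single libraries left out are given with the comparisons. Without both shallow libraries, Hdac8 gave 0.049 averaged and 0.13 in untrained mice for the hairpin. By edgeR, in alternatives chosen after seeing the data, these were 0.050 and 0.14 without those libraries and 0.0079 and 0.033 with the number term. For training, averaged and with the knockdown vector, Sirt5 gave -0.19 and -0.24 without both shallow libraries, and -0.18 and -0.21 without KD.255, with an averaged range of -0.18 to 1.66 over single libraries left out. It gave -0.10 and -0.022 by edgeR, -0.18 and -0.25 by edgeR without the shallow libraries and -0.12 and -0.033 by edgeR with the number term. DESeq2 gave -0.093 averaged. The Sirt5 interaction was -0.049 without KD.255, -0.075 without both shallow libraries and -0.11 so by edgeR. The Hdac8 value without KD.255 in untrained mice was 0.13. With longest-transcript lengths the levels per kb were 369 for Sirt2, 219 for Brd2, 141 for Ncoa1 and 143 for Hdac11.

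Depth limits the low members: a value under 46.7 in KD.255 lies under its floor of 3 reads.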

Other observations

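Some partners of the enzymes also lay higher in the 4 libraries with the lower share of reads in no gene (eGFP.254, eGFP.266, KD.253 and KD.249). This was looked at after the values of the members were seen. Of 39 subunits of acetyltransferase complexes, 9 lay above the other 4 libraries and 1 below, and of 33 subunits of deacetylase complexes 8 lay above and 0 below. Of 32 other readers of acetyl-lysine, 6 lay above and 0 below. Most genes of each list overlapped, and no gene of the 12681 passed in the relation with that share. Over all genes 6.66% lay above and 6.47% below. Gps2, a subunit of a deacetylase complex, stood at 229 to 301 in those libraries and at 147 to 207 in the others. Kansl1, the scaffold of the Kat8 complex NSL, stood at 683 to 716 against 482 to 561, and Jade2, a scaffold of the Kat7 complex, at 382 to 452 against 277 to 343. The order ran the other way for Dr1, of the ATAC complex, at 142 to 171 against 189 or more. None of the 12 genes of acetyl-CoA supply, the 15 oligodendrocyte markers, the 12 microglial markers or the 20 interferon response genes was ordered this way, and of the 15 pyramidal and granule neuron markers none was either. Of other lists, 2 of 10 inhibitory neuron, 2 of 8 endothelial and 1 of 10 astrocyte markers lay below, and 2 of 14 immediate early genes above. The share of reads in no gene, depth and these levels move together in part, and their part in the pattern was not tested.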
